A study of Homo sapiens with 12 samples.

Results

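HCCLM3, a hepatoma cell line, was compared with LX2, a hepatic stellate cell line, each grown without the other in a tumor-on-a-chip, a microfluidic device that holds cells in a gel. Both lines carried the genotype WT, and no agent was given to either. The 6 libraries (3 of each line) belong to a series of 12, in which the other 6 come from the same lines grown together. The labels do not say whether replicates were separate cultures, so p-values reflect only how far these libraries spread, perhaps for technical reasons. Poly(A) RNA was sequenced from both ends. Each line is a single established line, and the comparison is between these lines, not between tumours and stellate cells at large. Of 60612 genes in the larger of the 2 count tables, 19721 had at least 10 counts in at least 3 of the 6 libraries and were kept. The smaller table, that of LX2, lists 32507 genes, and the 262 kept genes that it lacks were read as 0 counts in LX2.

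Hepatocytes secrete plasma proteins and are held in their state by a circuit of transcription factors that includes HNF4A, the FOXA factors and CEBPA. Hepatocellular carcinoma cells keep this circuit to varying degrees and often express fetal, biliary or gut-type genes. Hepatic stellate cells are the vitamin A storing pericytes of the liver. When activated they become contractile and lay down collagen, and in liver tumours they are a main source of cancer-associated fibroblasts. A comparison of the lines grown apart shows which genes each of them contributes before the other is present.

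Libraries held between 68088914 and 77712308 counts in HCCLM3 and between 61836616 and 65314354 in LX2. HCCLM3 libraries detected 21261 to 21667 genes, and LX2 libraries 24794 to 25041. Log2 CPM (counts scaled to library size, with a pseudocount of 1) correlated at 0.990 between HCCLM3 libraries, at 0.993 to 0.994 between LX2 libraries and at 0.808 to 0.818 across the lines, over genes that are not independent. In HCCLM3 replicate 3, 42 genes exceeded 8 times their CPM in both other HCCLM3 libraries, against 9 to 22 genes in the other libraries. In HCCLM3 replicate 1, 39 genes were below an eighth of their CPM in both others, against 24 in replicate 3 and 13 to 18 elsewhere. Genes of fibroblasts were among those high in replicate 3. COL1A2 had 0, 0 and 502 counts in HCCLM3 replicates 1 to 3, MMP3 had 0, 0 and 487, and PDGFRA had 0, 0 and 71. All LX2 libraries were at 0 for COL1A2 and MMP3. Some results are given below with and without replicate 3, but not all that it affects.

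Throughout, a level is the deposited FPKM, fragments scaled to gene length and sequencing depth, divided by the library's TMM scaling factor. Fold changes come from the raw counts and are HCCLM3 minus LX2 on the log2 scale, so a negative value is higher in LX2. A gene was called at an adjusted p under 0.05. A stricter call also needed a 4-fold difference. Where a line had no count in any library, the fold is a lower bound that sets the line at 3 counts over its 3 libraries.

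Promoter sequences were searched for motifs in the genes restricted to one line. A gene was termed restricted if its mean was at least 10 CPM in one line and no library of the other line had more than 3 counts. There were 102 such genes for HCCLM3 and 98 for LX2. RefSeq windows (GRCh38.p14) from 250 bases before to 50 after the start site matched 72 and 66 of them. The motif GTTAAT, on either strand, stood in 15 of the 72 HCCLM3 windows (20.8%) and in 1 of the 66 LX2 windows (1.52%), that of CGA. Of all 35116 windows 2417 (6.88%) held it. None of the 7 motifs searched contains another. The genes with it included the plasma protein genes APOH, FGA and FGB, the bilirubin-conjugating enzyme gene UGT1A1, the hepatic lipase gene LIPC, the intestinal transcription factor gene CDX2 and the selenium-dependent peroxidase gene GPX2. Windows of 4 of them are printed 5′ to 3′ on the gene's strand because 3 belong to classical liver secretory genes and 1 to the gene with the second highest level of the 102; capitals mark GTTAAT or its reverse complement ATTAAC.
APOH (chr17:66229366-66229665, minus strand): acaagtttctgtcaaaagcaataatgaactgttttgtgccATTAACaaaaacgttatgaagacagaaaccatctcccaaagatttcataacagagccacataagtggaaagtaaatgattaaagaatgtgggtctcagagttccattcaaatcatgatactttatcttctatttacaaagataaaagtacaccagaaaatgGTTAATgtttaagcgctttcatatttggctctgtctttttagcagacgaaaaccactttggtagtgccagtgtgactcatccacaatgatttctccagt
FGA (chr4:154590693-154590992, minus strand): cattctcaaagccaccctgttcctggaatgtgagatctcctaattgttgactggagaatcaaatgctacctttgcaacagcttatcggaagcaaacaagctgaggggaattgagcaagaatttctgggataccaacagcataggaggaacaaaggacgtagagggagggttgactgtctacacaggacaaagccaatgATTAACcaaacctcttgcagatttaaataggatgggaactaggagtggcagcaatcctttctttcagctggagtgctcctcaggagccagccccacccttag
FGB (chr4:154562730-154563029, plus strand): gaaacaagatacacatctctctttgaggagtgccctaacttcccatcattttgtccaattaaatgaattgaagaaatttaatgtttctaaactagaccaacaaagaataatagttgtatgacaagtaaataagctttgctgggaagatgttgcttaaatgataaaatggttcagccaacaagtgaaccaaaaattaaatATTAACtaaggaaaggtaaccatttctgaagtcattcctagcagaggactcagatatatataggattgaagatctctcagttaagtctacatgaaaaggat
GPX2 (chr14:64942696-64942995, minus strand): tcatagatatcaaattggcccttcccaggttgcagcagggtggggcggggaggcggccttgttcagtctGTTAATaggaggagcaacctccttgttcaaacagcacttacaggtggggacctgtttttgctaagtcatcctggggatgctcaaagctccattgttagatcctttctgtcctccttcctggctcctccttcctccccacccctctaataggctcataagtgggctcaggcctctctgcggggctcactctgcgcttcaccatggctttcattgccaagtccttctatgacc
Counting the start base as 0, the motif began at -210 and -49 in APOH, at -52 in FGA, at -51 in FGB and at -181 in GPX2. In FGA, FGB and 1 of the 2 APOH sites it thus began at nearly the same distance from the start. In LIPC it began at -66 and in CDX2 at -3. Positions were not compared with those in other windows. APOH, the phospholipid-binding beta-2-glycoprotein, stood at levels of 20.2, 18.6 and 20.4 in HCCLM3 and had no count in LX2, at least 2294-fold higher in HCCLM3. FGA and FGB, which encode fibrinogen chains, stood at 5.65, 5.47 and 5.12 and at 2.53, 2.46 and 2.41, also with no count in LX2. The lines did not overlap for these genes, which follows from how restricted genes were chosen and is no separate result. A GATA motif, AGATAA, was in 18.1% of the HCCLM3 windows, 9.09% of the LX2 windows and 10.3% of all. The HNF4 motif CAAAGTCCA was in none of either set and in 0.384% of all. The CDX motif TTTATG was in 6.94% of the HCCLM3 windows, 3.03% of the LX2 windows and 10.6% of all. By gene list (16 to 20 windows each), TTTATG was in 31.6% of gut-type, 26.3% of hepatocyte and no junction or mesenchymal windows. AGATAA was in 21.1%, 36.8%, 5.0% and 6.25% of these lists, in that order. The FOXA motif TGTTTAC was in 2.78% of HCCLM3 windows, 1.52% of LX2 windows and 3.42% of all. The other FOXA motif, TGTTTGC, was in 6.94%, 7.58% and 3.89%. In the gut-type and hepatocyte lists, TGTTTAC was in 15.8% and 5.26%, and TGTTTGC in 5.26% and 21.1%.

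The E-box CAGGTG, which ZEB and SNAI repressors of epithelial genes can bind, was in 11 of 20 windows of the epithelial junction list (55.0%), 12 of 19 of the gut-type list (63.2%) and 3 of 16 of the mesenchymal list (18.8%). All windows held it at 20.6%. Genes restricted to one line did not lean with it: it was in 25.0% of the HCCLM3 windows and 27.3% of the LX2 windows. The window of CRB3, a polarity protein gene of the apical membrane, is printed as an example with CAGGTG and CACCTG in capitals. Numbers of copies were not compared between genes.
CRB3 (chr19:6464021-6464320, plus strand): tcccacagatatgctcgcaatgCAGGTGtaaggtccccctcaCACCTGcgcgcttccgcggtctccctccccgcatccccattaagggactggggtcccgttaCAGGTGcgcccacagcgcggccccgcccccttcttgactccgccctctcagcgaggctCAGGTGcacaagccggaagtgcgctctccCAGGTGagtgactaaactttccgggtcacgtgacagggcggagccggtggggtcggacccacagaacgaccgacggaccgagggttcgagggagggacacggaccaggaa
CRB3 carried 5 copies, beginning at -228, -208, -147, -89 and -60. Its level was 5.02, 5.04 and 4.46 in HCCLM3, and LX2 had no count, so that it was at least 677-fold higher in HCCLM3. A motif match describes these letters only; binding was not measured.

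The lines differed at most of the genes measured. Of the 19721 genes, 14088 were called (71.4%), 6693 higher in HCCLM3 (33.9%) and 7395 higher in LX2 (37.5%). At 4-fold or more, 2358 genes were higher in HCCLM3 (12%) and 3637 in LX2 (18.4%). The 3 libraries of one line lay wholly above those of the other for 15453 genes (78.4%). The median absolute log2 fold change was 1.18. Because so many genes were called, each list below is read against these shares. The lists were chosen with earlier results of these data known, so a share above these may partly reflect that choice. The balance of directions depended on the scaling: with library totals in place of TMM factors the median log2 fold change of all genes moved from -0.13 to -0.51, and calls to 5122 and 9246. On the first scaling 47.5% of called genes were higher in HCCLM3, and on the second 35.6%.

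**Figure D1:**
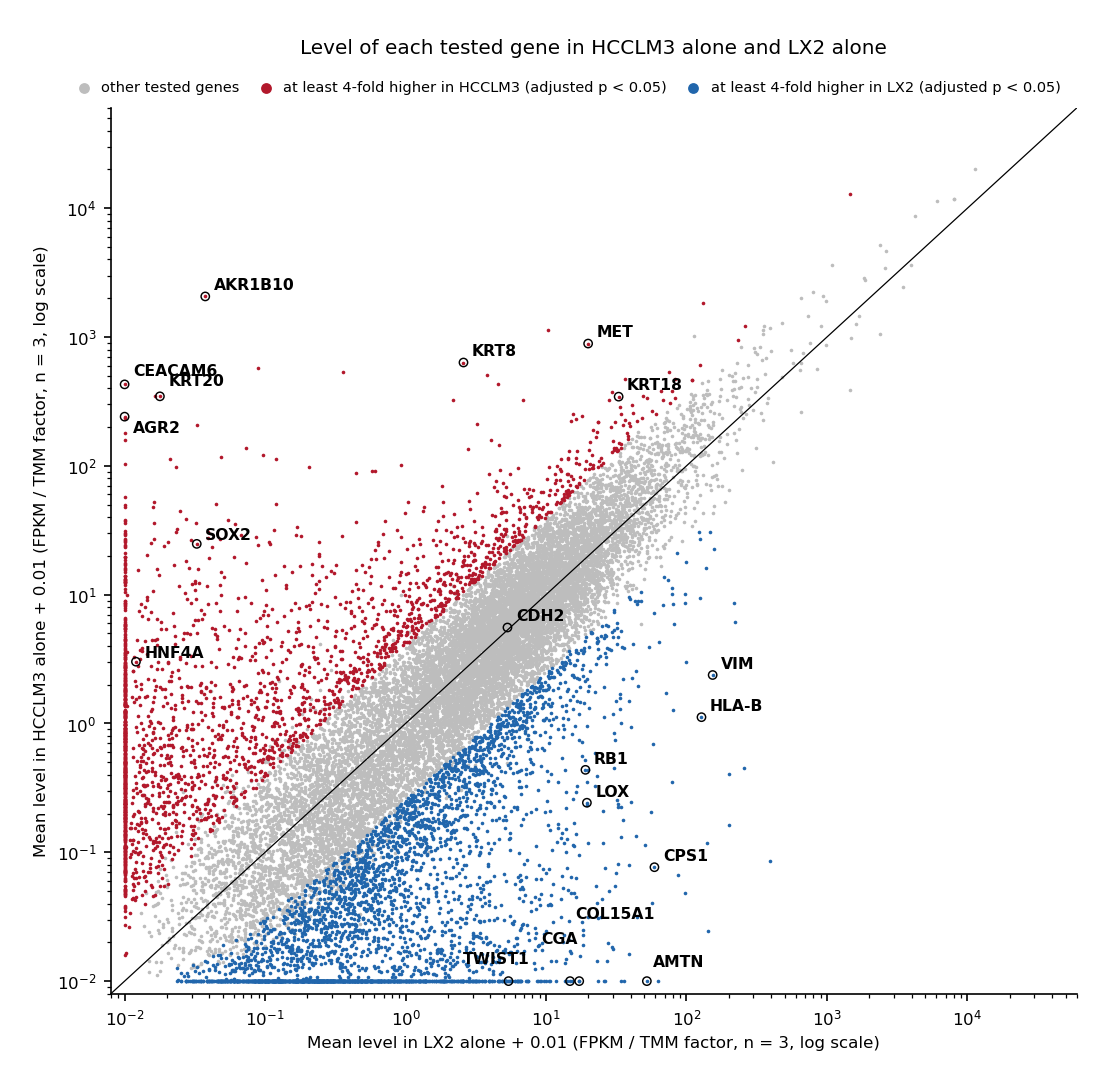
Mean level of each tested gene in HCCLM3 alone (vertical) against LX2 alone (horizontal), as FPKM divided by the TMM factor plus 0.01, both on log axes, n = 3 libraries a line. Genes at least 4-fold apart are coloured by line, and those along the edges had levels near 0 in the other line, such as CEACAM6 (429 against 0).

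Several of the genes with the highest levels were shared by the lines, at different levels. FTL, the ferritin light chain, had a mean level of 12803 ± 1164 (SD, n = 3) in HCCLM3 and 1452 ± 7.15 in LX2, while the heavy chain FTH1 was ordered the other way, 1047 against 2397. AKR1B10, an aldo-keto reductase much studied in hepatocellular carcinoma, stood at 2067 ± 122 in HCCLM3 and 0.0275 in LX2. S100A10, the annexin A2 partner, stood at 1841 and 131. In LX2, the actin-sequestering peptide gene TMSB4X stood at 1468 against 388 in HCCLM3. FOLR1, the folate receptor alpha, stood at 392 ± 5.20 in LX2 against 0.0760 in HCCLM3 (log2 fold change -12.27, SE 0.319, adjusted p = 1.05e-06).

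The restricted genes were chosen by their counts in these libraries and are described without a test. CEACAM6, a cell surface adhesion molecule of mucosal epithelium (chr19:41750977-41772211, plus strand, as deposited), had 98319, 103971 and 90633 counts in HCCLM3 and none in LX2, at least 110577-fold more. AGR2, a disulfide isomerase of mucus-secreting cells, had 57042, 49001 and 47803 counts against none. Next by bound came the biliary keratin KRT19 (at least 48344-fold), the carboxylesterase CES1 (46394-fold), osteopontin, SPP1 (32229-fold), UGT1A1 (22176-fold), liver-intestine cadherin, CDH17 (16867-fold), and the tetraspanin-like TM4SF18 (11372-fold). Several of these mark bile duct or gut epithelium. Reads of UGT1A1 cannot be told apart from those of the other UGT1A genes, which share its last exons, and CEACAM6 has near-identical relatives. For GPX2 the levels were 379, 318 and 340 in HCCLM3 and LX2 had 0, 0 and 3 counts. DEFB1, an antimicrobial beta-defensin, stood at a mean of 104 against no count.

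On the LX2 side, ECEL1, a membrane metallopeptidase, had 16159, 15064 and 17672 counts and none in HCCLM3, at least 14379-fold more in LX2. RANBP3L, a nuclear export factor for Smads, followed (at least 13553-fold), then the basement membrane collagen COL15A1 (8830-fold), the ubiquitin ligase RNF182 (8205-fold), the glucagon-like peptide 2 receptor GLP2R (7556-fold), the heparan sulfate sulfotransferase HS6ST3 (6402-fold), the spectrin-binding adducin ADD2 (5367-fold) and the neuronal adhesion gene NEGR1 (4638-fold). By level, AMTN, an enamel matrix protein gene, the cancer-testis gene MAGEA1, the mesenchymal transcription factor gene TWIST2 and the non-coding gene PICSAR also ranked among the highest 8. Of the 102 HCCLM3 genes 87 were protein coding and 95 had no count at all in LX2. Of the 98 LX2 genes 92 were protein coding and 97 had no count in HCCLM3.

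The liver transcription factors were higher in HCCLM3 almost throughout. Of 18 listed factors 17 were tested, 14 of them were higher in HCCLM3 (82.4%, against 33.9% of all genes) and 2 in LX2, with a median log2 fold change of 5.60 against -0.13 over all genes. HNF4A, the nuclear receptor at the centre of the hepatocyte circuit, stood at 4.18, 2.28 and 2.57 in HCCLM3 and at 0, 0.00612 and 0 in LX2 (log2 fold change 10.36, SE 0.713, adjusted p = 2.81e-05). FOXA2, a pioneer factor of endoderm, stood at 31.3, 10.3 and 28.6 against no count, at least 5321-fold higher. CEBPA, a regulator of liver metabolism and of cell cycle exit, stood at 151, 127 and 125 against 2.65, 3.02 and 2.64, a 48.5-fold difference (SE 0.12 on the log2 scale, adjusted p = 5.97e-07). In each of the 3 the lines were far apart, and replicate 2 had the lowest FOXA2. The bile acid receptor NR1H4 (mean 1.74) and the hepatoblast factor PROX1 (0.901) were present in HCCLM3 with no count in LX2. FOXA1 was 8.4-fold higher in HCCLM3, with 0.903 in LX2. The exceptions were ONECUT2 (log2 fold change -1.36) and CEBPB (-0.31), both higher in LX2.

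Hepatocyte products were present in HCCLM3 at very unequal levels. Of 30 listed genes 21 were tested; 14 were higher in HCCLM3, each by at least 4-fold, 2 were higher in LX2 and the median log2 fold change was 6.16. Only 7 of the 30 reached a mean level of 1 in HCCLM3. ALB, serum albumin, stood at 0.791, 0.560 and 0.474 in HCCLM3 and had no count in LX2. Its level was thus below that of APOH and of RBP4, the plasma retinol carrier, at 39.4, 39.0 and 35.8 (LX2 0.0704, 0.0617 and 0). The order in HCCLM3 was RBP4, APOH, FGA, AMBP (4.17), F2, which encodes prothrombin (2.75), FGB and the tyrosine-degrading enzyme HPD (1.75), with ALB further down. CPS1, the first enzyme of the urea cycle and a classical hepatocyte marker, ran against the list: 0.0659, 0.125 and 0.00931 in HCCLM3 and 59.4, 59.4 and 58.5 in LX2, 867-fold higher in LX2 (log2 fold change -9.76, SE 0.706, adjusted p = 3.51e-05). It was the only listed hepatocyte gene with a mean level of 1 or more in LX2.

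Hepatoma and progenitor markers were split. Of 16 tested, 8 were higher in HCCLM3 and 5 in LX2 (median 0.51). AFP, the fetal serum protein used as a tumour marker, stood at 0.967, 0.881 and 0.620 in HCCLM3 against no count. EPCAM, a progenitor and epithelial surface marker, stood at 0.186, 0.178 and 0.246 in HCCLM3 and higher in LX2, at 1.18, 0.661 and 0.959 (log2 fold change -2.19, SE 0.304, adjusted p = 0.000737). CD24, a surface sialoprotein of progenitors, was also higher in LX2, 10.1 against 0.241. PROM1 and LIN28B had no count in HCCLM3 and low mean levels in LX2, 0.0439 and 0.0948. GPC3, with no count in HCCLM3 and 8, 8 and 4 in LX2, was too low to be tested. DLK1 had no count in either line. Of the 18 listed markers, 4 had no count in HCCLM3 and 4 had none in LX2. SOX9 overlapped between the lines, 1.77 to 2.43 in HCCLM3 and 2.34 to 2.46 in LX2 (adjusted p = 0.246).

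Gut-type and mucosal genes were mostly higher in HCCLM3. Of 24 tested, 20 were higher in HCCLM3 (83.3%, against 33.9% of all genes), 19 by at least 4-fold, and 2 in LX2. The median log2 fold change was 9.39, or 7.68 with genes at 0 set at their bounds. KRT20, the keratin of intestinal surface cells, stood at 338, 354 and 347 in HCCLM3 against 0, 0.0235 and 0. CDX2, which specifies intestinal epithelium, stood at 4.15, 3.51 and 3.45 against no count (at least 1136-fold). VIL1, the microvillus protein villin, had a mean of 12.4 against no count, and the transmembrane mucin MUC13 stood at 17.1 against 0.0124. GATA4 (1.99, 4.98 and 4.54 against 0, 0 and 0.00962) and GATA6 (mean 9.29 against 3.30), endoderm factors of foregut and liver, were both higher in HCCLM3. S100P, a calcium-binding protein of placenta and gastrointestinal tumours, was high in both lines but 538 against 75.2. MUC1 (2.40 against 4.70) was higher in LX2.

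**Figure D2:**
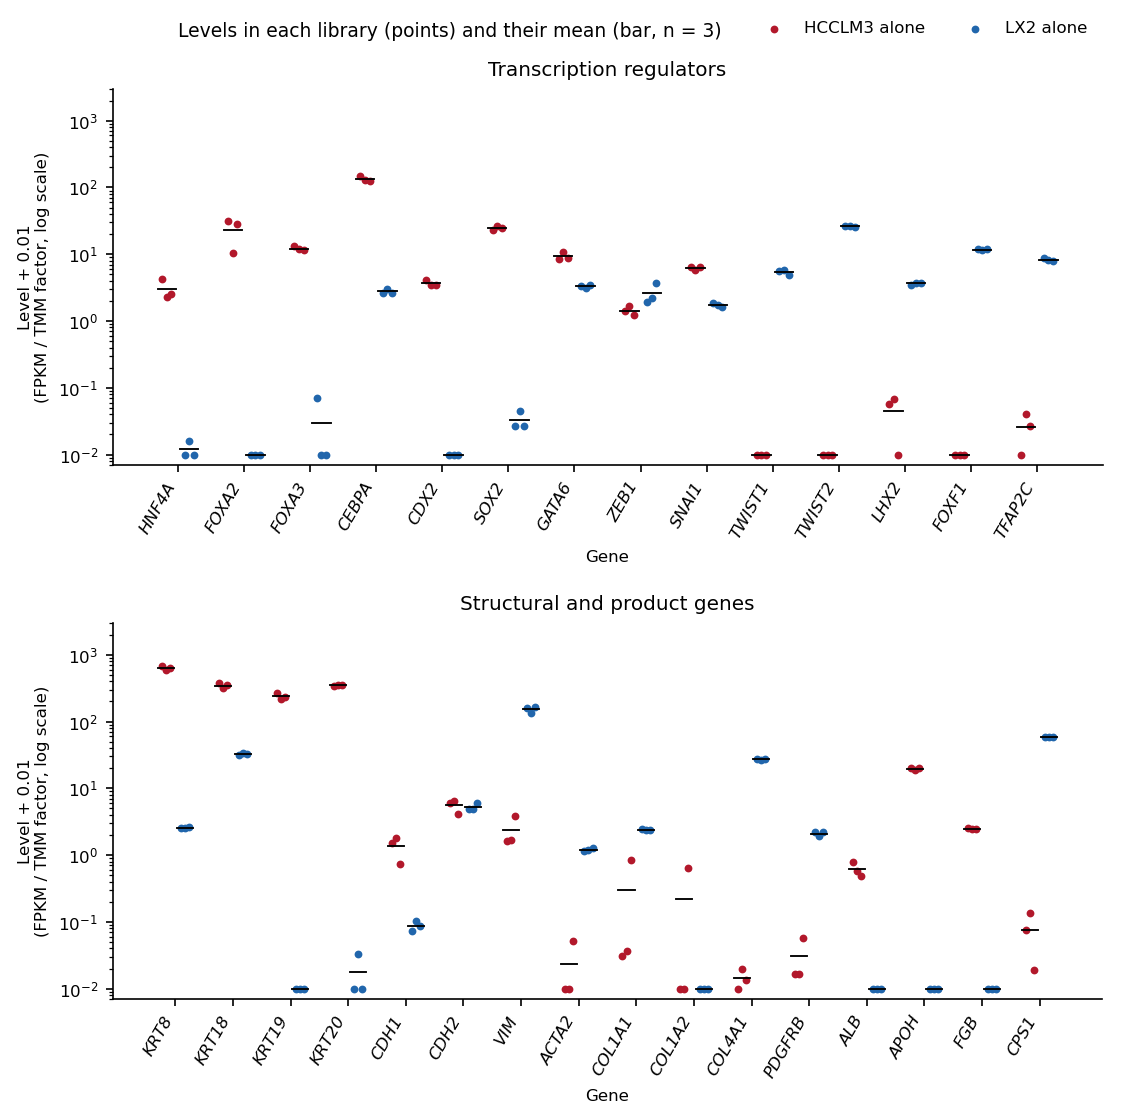
Level in each library (points) and mean (bar, n = 3) of selected genes in HCCLM3 alone and LX2 alone, as FPKM divided by the TMM factor plus 0.01 on a log axis, arranged in panels by role. KRT8 and HNF4A lie far higher in HCCLM3 and VIM and TWIST2 in LX2, while CDH2 overlaps and COL1A1 is spread in HCCLM3 by replicate 3.

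Most simple keratins were higher in HCCLM3, and 2 of the 7, KRT19 and KRT23, had no count in LX2. KRT8, the type II keratin of simple epithelia, stood at 675, 596 and 633 in HCCLM3 and 2.51, 2.55 and 2.66 in LX2, 245-fold apart (log2 fold change 7.94, SE 0.0835, adjusted p = 1.61e-07). Its partner KRT18 stood at 345 ± 27.8 and 32.9 ± 0.81 (SD, n = 3), 10.5-fold apart. The KRT8 and KRT18 gene models overlap on opposite strands, and the counting is not stated to use strand. KRT7, of ducts and placenta, went the other way, 5.25 against 34.0. Of 7 simple keratins 5 were higher in HCCLM3 and 2 in LX2. Of 14 stratified keratins 6 were tested, with 3 higher in HCCLM3 and 2 in LX2.

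Junction genes leaned to HCCLM3 with exceptions. Of 25 tested (34 listed), 15 were higher in HCCLM3 (60%, against 33.9% of all genes) and 6 in LX2, with a median log2 fold change of 1.99. CDH1, E-cadherin, was low in both lines: 1.52, 1.79 and 0.718 in HCCLM3 and 0.0628, 0.0920 and 0.0769 in LX2 (log2 fold change 4.08, SE 0.401, adjusted p = 0.000141). The tight junction gene CLDN4 stood at 56.3, 49.7 and 51.7 against 1.12, 0.914 and 1.03. ELF3, an epithelial ETS factor, stood at 44.2 against 1.33, and the protease inhibitor SPINT1 at 9.25 against 0.0222. Desmosome genes were split. The plakophilins PKP2 (8.12 against 1.79) and PKP3 (17.2 against 7.17) were higher in HCCLM3. DSG2 was higher in LX2 (13.0 against 25.5), as was the plakoglobin gene JUP (26.9 against 48.0), and DSP overlapped (adjusted p = 0.065). Basal epithelial genes were also mostly higher in HCCLM3, 9 of 13 tested, among them the hemidesmosome collagen COL17A1 (7.4 against 0.00276) and ITGB4 (37.7 against 5.16).

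Mesenchymal genes leaned to LX2 but did not sort cleanly. Of 20 tested (22 listed), 13 were higher in LX2 (65.0%, against 37.5% of all genes) and 6 in HCCLM3, and the median log2 fold change was -1.31. VIM, the mesenchymal intermediate filament vimentin, stood at 1.61, 1.70 and 3.80 in HCCLM3 and 162, 134 and 164 in LX2, 64.6-fold higher in LX2 (SE 0.409 on the log2 scale, adjusted p = 2.66e-05). TWIST1 and TWIST2, basic helix-loop-helix factors of mesenchyme, had no count in HCCLM3 and means of 5.40 and 26.2 in LX2, at least 832-fold and 3775-fold higher. The collagen cross-linking oxidases LOX (0.232 against 19.5) and LOXL2 (9.40 against 125) and the receptor kinase AXL (8.98 against 45.3) were also higher in LX2. Other genes used as mesenchymal markers were higher in HCCLM3: fibronectin, FN1, at 99.8 against 12, and the repressor SNAI1 at 6.27 against 1.75. CDH2, N-cadherin, stood at 6.10, 6.38 and 4.17 against 4.84, 4.96 and 6.12, and the lines overlapped (adjusted p = 0.763). ZEB1 stood at 1.41, 1.65 and 1.21 against 1.92, 2.20 and 3.68 (log2 fold change -0.87, SE 0.264, adjusted p = 0.0232); without HCCLM3 replicate 1 or 3 the adjusted p was 0.062 or 0.0707.

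The stellate label of LX2 was checked against 28 markers of stellate cells and fibroblasts, and the data went against a part of it. Of the 20 tested, 8 were higher in LX2 and 9 in HCCLM3, with a median log2 fold change of 0.56; without HCCLM3 replicate 3 these were 9 and 9, and 0.43. In every LX2 library 7 of the 28 had no count: COL1A2, COL6A3, SPARC, POSTN, LRAT, RELN and HAND2. LRAT esterifies retinol for storage, and COL1A2 encodes the second chain of type I collagen. COL1A1, the first chain, stood at 2.41, 2.38 and 2.34 in LX2 and at 0.0207, 0.0262 and 0.831 in HCCLM3 (log2 fold change -3.02, SE 1.3, adjusted p = 0.0763). Without HCCLM3 replicate 3 the log2 fold change was -6.56 (adjusted p = 8.84e-06). Markers higher in LX2 included the smooth muscle actin ACTA2 (1.14, 1.18 and 1.27 against 0, 0 and 0.0411), the pericyte receptor PDGFRB (2.17, 1.90 and 2.19 against 0.00639, 0.00664 and 0.0482), COL5A1 (31.7 against 0.0592) and LHX2, a stellate cell transcription factor (3.63 against 0.0346). The microfibrillar collagens COL6A1 (60.3, 61.4 and 62.7 against 3.22, 3.18 and 3.29) and COL6A2, and the proteoglycan LUM (12.6 against 0.892), were higher in HCCLM3. The name LX2 is therefore used here as the label of these libraries.

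Basement membrane genes set one collagen family apart. All 22 listed genes were tested; 12 were higher in LX2, 10 of them by at least 4-fold, and 7 in HCCLM3 (median -0.58). Type IV collagen, the network-forming collagen of basement membranes, accounted for 6 of the 12. COL4A1 stood at 27.5, 26.7 and 27.6 in LX2 and at 0, 0.00942 and 0.00358 in HCCLM3 (log2 fold change -12.56, SE 0.465, adjusted p = 2.78e-06), and COL4A2 at 45.0, 44.2 and 42.7 against 0.0993, 0.123 and 0.153, 344-fold higher in LX2. These neighbours overlap on opposite strands. COL4A5 stood at 8.85 against 0.0333. Laminin chains divided: LAMA5 (7.59 against 30.5) and LAMB2 (3.71 against 17.9) were higher in LX2, while LAMA4 (2.93 against 0.0175) was higher in HCCLM3. LAMB1 did not pass the threshold (24.5 against 22.9, adjusted p = 0.183).

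Homeobox genes of the HOX clusters, which record position along the body axis, were mainly higher in LX2. Of 32 tested (39 listed), 20 were higher in LX2, 16 of them by at least 4-fold, and 4 in HCCLM3, none by 4-fold (median -2.33). HOXC10 had the highest LX2 level of the list and stood at 15.5, 17.0 and 14.2 in LX2 and at 0.119, 0.136 and 0.0551 in HCCLM3. HOXB9 had means of 9.15 and 0.0376, HOXC13 of 8.30 and 0.00742, and HOXD9 of 4.85 and 0. HOXA genes split within the cluster: HOXA7 (6.36 against 0.0339) was higher in LX2, and HOXA11 (12.4 against 6.57) and HOXA5 (3.56 against 1.92) were higher in HCCLM3. HOXB7 did not pass the threshold, with 9.06 and 10.6 (adjusted p = 0.0842).

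Transcription factors that mark other lineages were present in both lines. Of 27 tested (44 listed), 15 were higher in LX2 and 10 in HCCLM3. The median log2 fold change was -1.64, or -2.18 without HCCLM3 replicate 3. FOXF1, a factor of gut and lung mesenchyme, stood at 12, 11.4 and 11.8 in LX2 and had no count in HCCLM3, at least 3186-fold. FOXL2, a factor of ovarian granulosa and pituitary cells, had a mean of 6.38 against no count (at least 1433-fold). TFAP2C, of trophoblast and germ cells, stood at 8.32 against 0.0161, IRX3 at 7.35 against 0.0173 and the melanocyte factor MITF at 3.71 against 0.0493. SOX2, a factor of pluripotent and foregut cells, was higher in HCCLM3: 23.2, 26.5 and 24.7 against 0.0167, 0.0342 and 0.0170 (log2 fold change 9.95, SE 0.224, adjusted p = 6.92e-07). PAX8, of thyroid and kidney, was 0.812 against 0.129.

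CGA, the common subunit of the glycoprotein hormones, stood at 14.9, 15.2 and 14.4 in LX2 with no count in HCCLM3, at least 2266-fold. It had the widest difference of the trophoblast list, where 7 of 11 tested genes were higher in LX2 and 3 in HCCLM3. Some cancer-testis genes, a class silent in most adult tissues other than testis, were expressed in the lines at different levels. Of 28 listed, 17 were too low to be tested, 9 of them with no count in either line. All 11 tested were called, against 71.4% of all genes, 5 higher in HCCLM3 and 6 in LX2. SSX1 stood at 118, 113 and 106 in HCCLM3 against 0, 0 and 0.0329. MAGEA1 stood at 32.6, 34.9 and 34.3 in LX2, and PRAME, a retinoic acid receptor repressor, at 9.09, 9.44 and 8.65, both with no count in HCCLM3. MAGEA3 (32.7 against 8.26) and MAGEA6 (7.30 against 30.2) went opposite ways, but they are near-identical copies whose reads are uncertain. Imprinted genes divided evenly, 6 and 6 of 14 tested (42.9% each, against 33.9% of all genes in HCCLM3 and 37.5% in LX2).

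Receptor tyrosine kinase genes divided evenly between the lines. Of 31 receptor tyrosine kinases tested, 14 were higher in each line (45.2%, against 33.9% of all genes in HCCLM3 and 37.5% in LX2). MET, the hepatocyte growth factor receptor, stood at 811, 957 and 903 in HCCLM3 and 20, 19.8 and 20 in LX2, 44.6-fold apart (log2 fold change 5.48, SE 0.0789, adjusted p = 3.37e-07). Its ligand HGF, with 31, 8 and 0 counts in HCCLM3 and none in LX2, was too low to be tested. The kinase-dead ephrin receptor EPHB6 (15.5 against 0.00251), MERTK (5.46 against 0.161) and FGFR4, the hepatocyte FGF19 receptor (14.2 against 2.06), were also higher in HCCLM3. LX2 was higher in IGF1R (3.52 against 26.2), EGFR (6.37 against 17.7), FGFR1 (0.0896 against 2.81) and the WNT5A receptor ROR2 (no count against 4.73, at least 2147-fold). WNT5A itself stood at 3.91, 4.90 and 4.10 in HCCLM3 and 59.7, 65.4 and 65.7 in LX2.

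Among 34 ligand genes tested, 16 were higher in HCCLM3 (47.1%, against 33.9% of all genes). In LX2 12 were higher (35.3%, against 37.5%), or 14 without HCCLM3 replicate 3. MDK, the heparin-binding growth factor midkine, stood at 569, 491 and 553 in HCCLM3 and 0.295, 0.435 and 0.314 in LX2 (log2 fold change 10.53, SE 0.176, adjusted p = 3.62e-07). The Wnt inhibitor DKK1 (92.6 against 4.66), the Notch ligand JAG1 (27.2 against 1.24), the activin subunit INHBB (23.8 against 0.00911) and the EGF receptor ligands AREG (25.8 against 2.64) and EREG (19.7 against 0.0502) were higher in HCCLM3 as well. LX2 was higher in FGF2 (2.55 against 20.5), VEGFA (0.773 against 13.2), PDGFC (0.0195 against 3.35) and the matricellular CCN1 (5.87 against 82.0). Transforming growth factor genes favoured HCCLM3: TGFB1 stood at 78.3 against 43.2 and TGFB2 at 5.77 against 0.0209.

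Matrix proteases and their inhibitors were mostly higher in HCCLM3, 12 of 21 tested (57.1%, against 33.9% of all genes), and 3 were higher in LX2. Matrilysin, MMP7, stood at 56.4, 51.7 and 50.3 against 0, 0 and 0.0183. The collagenase MMP1 (27.7 against 0.0292), the membrane-bound MMP14 (6.77 against 0.00319) and urokinase, PLAU (17.4 against 0.207), went with it. MMP2, gelatinase A, was the reverse: 0.133, 0.128 and 0.383 in HCCLM3 and 39.7, 29.2 and 29.3 in LX2, 153-fold higher in LX2. Cytokines and chemokines divided 10 and 10 of 24 (41.7% each). The neutrophil chemokine CXCL5 stood at 29.3, 34.8 and 30 in HCCLM3 with no count in LX2, at least 6651-fold, and IL6 at 0.0936, 0.176 and 0.360 against 15.3, 14.1 and 12. Of 23 integrins and other adhesion receptors tested, 11 were higher in LX2 (47.8%, against 37.5% of all genes). In HCCLM3 7 were higher (30.4%, against 33.9%), or 5 without HCCLM3 replicate 3. ITGB5 had means of 50.5 and 50.4.

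Antigen presentation genes were lower in HCCLM3. Of 15 tested, 10 were higher in LX2 (66.7%, against 37.5% of all genes) and 1 in HCCLM3, with a median log2 fold change of -1.63. HLA-B, a classical class I heavy chain, stood at 1.06, 0.543 and 1.72 in HCCLM3 and 130, 112 and 142 in LX2, 114-fold higher in LX2 (log2 fold change -6.84, SE 0.453, adjusted p = 2.39e-05). HLA-C was also higher in LX2, 69.6 against 13.6. The HLA-B and HLA-C models overlap on the same strand in the deposited annotation, and reads of these genes can map to each other. NLRC5, the class I transactivator, was 4.36 against 0.276, and the peptide transporter TAP1 23 against 4.60. PSMB9 and HLA-E did not pass the threshold (adjusted p = 0.776 and 0.0577).

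Detoxification genes were mostly higher in HCCLM3. Of 29 enzymes and transporters tested, 21 were higher in HCCLM3 (72.4%, against 33.9% of all genes), 14 by at least 4-fold, and 6 in LX2 (median 1.68). ALDH1A1, a retinal-oxidising aldehyde dehydrogenase, stood at 580, 606 and 538 in HCCLM3 and 0.132, 0.0467 and 0.0601 in LX2 (log2 fold change 12.74, SE 0.329, adjusted p = 1.03e-06). ALDH3A1 stood at 429 against 4.52, TXNRD1, thioredoxin reductase, at 372 against 29.3, the quinone reductase NQO1 at 458 against 143, and the drug efflux pump ABCG2 at 36.4 against 0.436. AKR1C1 stood at 210 against 3.22, with the caution that AKR1C genes are near copies. AKR1B1 (260 against 652) and the dioxin-responsive CYP1B1 (12.1 against 32.0) were higher in LX2. Retinoid handling genes followed, 12 of 20 tested higher in HCCLM3 (60%, against 33.9% of all genes) and 6 in LX2. CRABP2, which carries retinoic acid to the nucleus, stood at 114, 73.6 and 104 against 0.236, 0.172 and 0.176, and the retinol dehydrogenase DHRS9 at 12.6 against no count. ALDH1A3 was higher in LX2 (0.0361 against 1.91).

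Cell cycle genes were called in both directions. Of 23 control genes tested, 11 were higher in LX2 and 5 in HCCLM3 (median -0.41). RB1, the retinoblastoma gene (chr13:48303744-48599436, plus strand), stood at 0.461, 0.534 and 0.286 in HCCLM3 and 19, 19.5 and 18.7 in LX2, 44.4-fold higher in LX2 (log2 fold change -5.47, SE 0.24, adjusted p = 4.81e-06). CDKN1A, p21, stood at 10.5 against 47.3, and CDKN2A at 13.5 against 21.5. CDK4 stood at 125, 71.6 and 114 in HCCLM3 and 26, 33.5 and 42.1 in LX2. For 30 replication and mitosis genes the median was 0.17, or -0.21 on library totals, with 14 higher in HCCLM3 and 10 in LX2. MKI67 overlapped (15.1, 18 and 8.67 against 18.4, 9.69 and 18.5, adjusted p = 0.694), and the largest difference was MCM7, a helicase subunit, at 258 against 41.7.

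**Figure D3:**
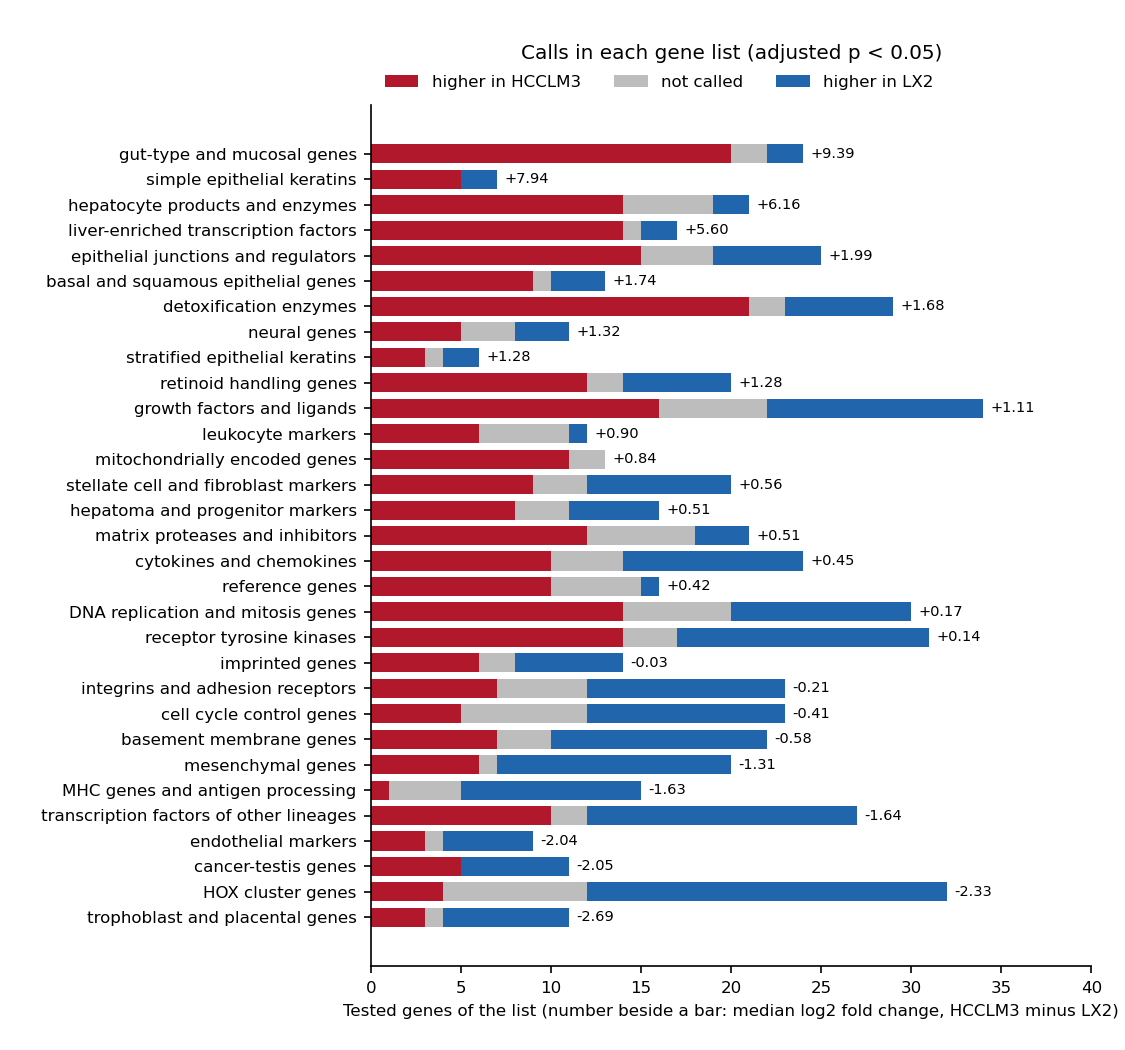
Number of tested genes in each list that were higher in HCCLM3, higher in LX2 or not called (adjusted p under 0.05), with the list's median log2 fold change beside its bar. Gut-type genes (20 of 24) and liver transcription factors (14 of 17) were mostly higher in HCCLM3, and HOX genes (20 of 32) and antigen presentation genes (10 of 15) mostly higher in LX2.

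Mitochondrially encoded genes, 7.69% to 8.49% of counts in HCCLM3 and 6.67% to 6.78% in LX2, were higher in HCCLM3 for 11 of 13. Common reference genes were too, for 10 of 16 (median 0.42, or 0.03 on library totals). HPRT1 was 98.2 against 36.9 and ACTB 779 against 401, while PGK1, TBP and PPIA did not pass the threshold.

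Markers of other cell types were mostly low. Of 20 leukocyte markers 12 were tested, and their summed level was 27.3 to 30.5 in HCCLM3 and 1.13 to 1.90 in LX2. The lysosomal gene CD68 made up most of it (25.6 against 0.232), whereas PTPRC, which encodes the pan-leukocyte CD45, stood at 0.0301 and 0.0222. None of 11 red cell genes was tested. Endothelial markers CDH5, TIE1, EMCN and ROBO4 had no count in any library. Other endothelial genes were split, with KDR (2.79 against 0.00236) and PECAM1 (2.21 against 0.113) higher in HCCLM3, and ENG (0.0938 against 11.1) and ERG (no count against 3.06) higher in LX2. Of 20 neural genes 11 were tested, with 5 higher in HCCLM3, 3 in LX2 and a median log2 fold change of 1.32, or 0.66 without HCCLM3 replicate 3. The filament gene NES stood at 74.2 against 4.93 and the ubiquitin hydrolase UCHL1 at 122 against 0.0867, while the synaptic gene SNAP25 stood at 0.00601 against 1.09 and the eye and brain factor PAX6 at 0.0120 against 0.370.

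Differences were not spread evenly over chromosomes. Over 9663 genes at a mean level of at least 1 in both lines, the median log2 fold change was 0.18. On chromosome 13 it was -1.26 over 129 genes, the furthest from that median. Of the 360 genes tested there, 262 were higher in LX2 and 38 in HCCLM3. RB1, COL4A1, COL4A2 and HS6ST3 all lie on it. The highest medians were on chromosomes 19 (0.75), 12 (0.71) and 17 (0.55). DNA copy number was not measured.

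**Figure D4:**
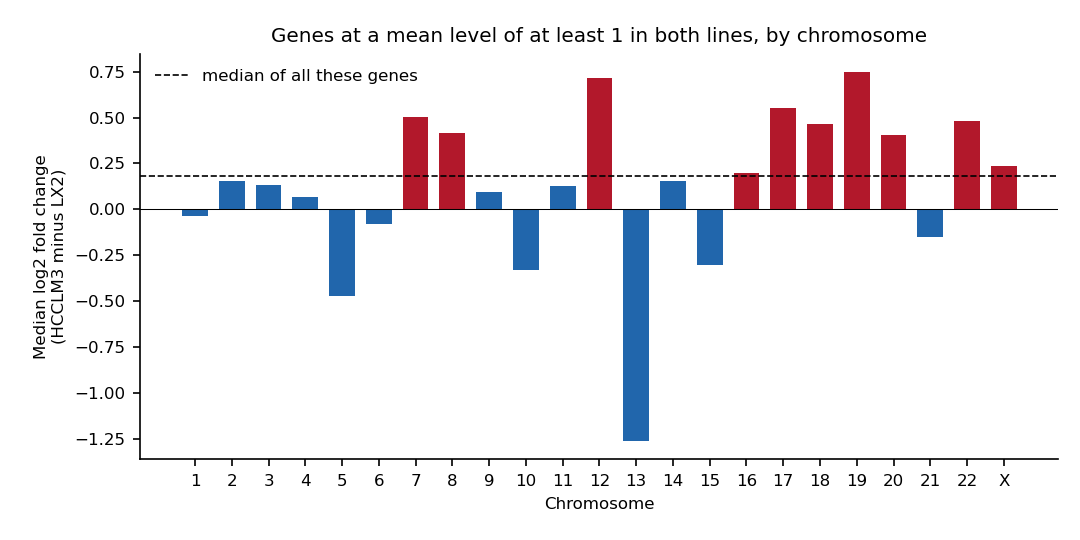
Median log2 fold change (HCCLM3 minus LX2) of genes at a mean level of at least 1 in both lines, by chromosome, with the median over all of them as a dashed line at 0.18. Chromosome 13 stands lowest at -1.26 and chromosome 19 highest at 0.75.

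Genes next to MET and RB1 were examined after their values were seen. Of 8 other protein-coding genes tested within 1000000 bases of MET on chromosome 7, 6 were higher in HCCLM3. Over the whole chromosome, 436 of 996 tested genes of any type were higher in HCCLM3. The caveolins, scaffolds of membrane invaginations, were higher too: CAV1 had means of 1140 and 10.4 (log2 fold change 6.77, SE 0.108, adjusted p = 3.62e-07), and CAV2 of 505 and 3.77 (7.06). TES, a focal adhesion gene, stood at 77.4 against 11.8. On the other side of MET the difference was smaller, with CAPZA2 at 16.3 against 9.85, and CTTNBP2, further off, had no count in HCCLM3 and 1.08 in LX2. Over all of chromosome 13, 262 of 360 tested genes of any type were higher in LX2, so a lean to LX2 was not particular to RB1. Around RB1, 12 of 13 other protein-coding genes were higher in LX2, with a median log2 fold change over the 13 of -2.01. The exception was LPAR6, a lysophosphatidic acid receptor gene inside RB1 on the opposite strand, at 0.934 in HCCLM3 and 0.00201 in LX2.

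The same contrast was made in the 6 libraries of the lines grown together, which share no sample with those above. There 20510 genes were tested and 14472 called (70.6%), 7061 higher in HCCLM3 (34.4%) and 7411 in LX2 (36.1%). Of the 5995 genes at least 4-fold apart in the lines grown alone, 5671 were tested again, 5588 had the same sign (98.5%) and 4339 were again called and 4-fold apart (76.5%). Among genes named above, VIM had a log2 fold change of -5.89 in co-culture, COL4A2 of -8.65, RB1 of -5.48, CPS1 of -9.98, SOX2 of 9.71 and ALB of 9.56, all on the same side as when grown alone. Not every listed gene kept its side: COL3A1, a fibrillar collagen, went from -1.53 to 3.48 and MUC1 from -0.97 to 0.72. Of all 13756 called genes tested again, 314 were called the other way. Others were closer together: HNF4A went from 10.36 to 4.04, CEACAM6 to 5.61 and TWIST2 to -6.48. Of the 102 genes restricted to HCCLM3, 94 exceeded 3 counts in some co-cultured LX2 library, 60 of them in each. Of the 98 restricted to LX2, 79 did so in some co-cultured HCCLM3 library, 28 of them in each. In bulk libraries, cells of the other line and expression by the labelled line cannot be told apart, nor can fewer cells of a type and less RNA per cell.

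**Figure D5:**
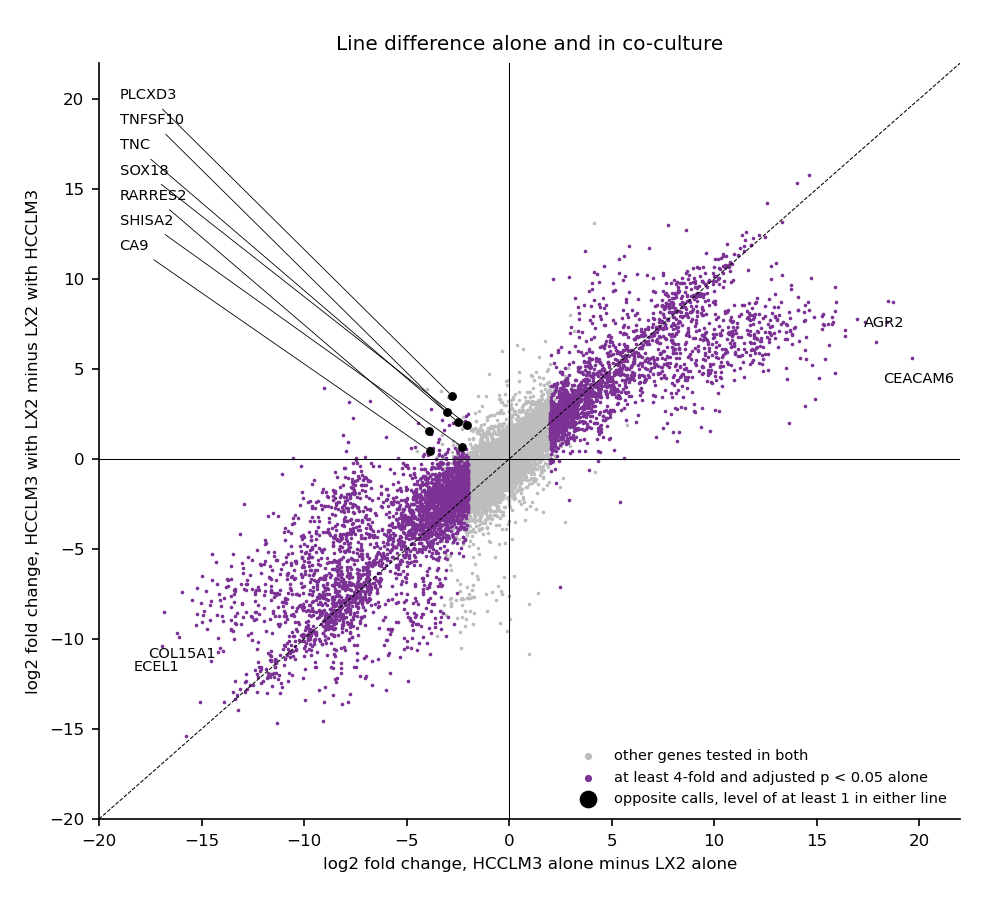
Log2 fold change between the lines grown together (vertical) against the lines grown alone (horizontal) for genes tested in both, 3 libraries a group. Points at least 4-fold apart when grown alone are coloured, nearly all lie in the quadrants of equal sign (5588 of 5671), and the 7 genes in black were called in opposite directions.

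Only 20 of the 5671 were called the other way in co-culture, and 19 of these were higher in LX2 when grown alone. TNFSF10, the death ligand TRAIL, was counted 41, 30 and 34 times in HCCLM3 without LX2, against 355, 320 and 316 times in LX2 without HCCLM3. In co-culture it had 457, 534 and 449 in HCCLM3 and 92, 106 and 84 in LX2. The hypoxia-induced carbonic anhydrase CA9 had 103, 51 and 85 against 1457, 1168 and 1353 when alone, and 2543, 2754 and 2824 against 2299, 2404 and 2490 together. RARRES2, which encodes the adipokine chemerin, had 54, 75 and 63 counts in HCCLM3 and 1084, 1041 and 1206 in LX2 grown alone, and 256, 175 and 212 against 79, 82 and 106 together. Each of the 3 thus changed sides, with no overlap between the lines in either condition.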

How the data were processed

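Poly(A) RNA of 6 libraries, 3 of each line grown alone, was analysed, and the 6 co-culture libraries served for comparison. The authors deposited raw read counts and FPKM values per gene in 2 tables, 1 for each line. The submitters' processing notes name Bowtie 0.12.2, HISAT2 2.0 and StringTie 1.3.0, and the build mm8, a mouse build, although the gene identifiers are human; the role of each tool, and whether counting used strand, are not given in the sources used here. Of the 60612 identifiers, 58394 are in GENCODE 29 (GRCh38), and 90.6% of these have the same chromosome and start or end there. Coordinates are printed as deposited; promoter windows are from RefSeq GRCh38.p14. In every library more genes had 4 counts than 3 or 5 (in HCCLM3 1044 to 1180 genes with 4 against 337 to 354 with 3), so low counts may not be plain read tallies.

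Counts were joined by gene identifier and fitted with edgeR 4.0.16 (R 4.3.3), with TMM factors (0.861 to 0.886 in HCCLM3, 1.14 to 1.15 in LX2), the quasi-likelihood test and Benjamini-Hochberg adjustment over the 19721 genes with at least 10 counts in at least 3 libraries. All p-values are two-sided. Only the 6 libraries entered the fit, with no covariate. The biological coefficient of variation was 32.0% in HCCLM3 and 20.3% in LX2. Levels are the deposited FPKM divided by the TMM factor; gene lengths implied by the 2 tables agreed within 2% for 99.8% of 11071 genes. Bounds set a line without counts at 3 counts over its 3 libraries. The smallest library held 61836616 counts, and bounds cover counting error only.

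The members and the 32 gene lists (734 genes, 733 matched) were chosen with earlier results of these data known. Genes were named by rule: the 8 with the largest log2 fold change toward each line among called genes without overlap and with a mean of at least 20 CPM; up to 4 called members of each list with the highest level, and members at 0 to 3 counts in every library of a line; a list of expected markers; and the 8 restricted genes of highest level in each line. Others were named after their values were seen. Replicate numbers are shared by the groups. Deviations of same-numbered libraries correlated at 0.024, 0.005 and 0.010, and those of other pairs at -0.016 to 0.006. With 3 libraries a group this cannot settle whether the numbers pair libraries, and the main fit did not pair them. Scripts were tested on counts simulated with known changes. The fit called 4.48% of 67 genes changed 1.5-fold, 34.3% of 67 changed 2-fold and 74.2% of 66 changed 4-fold. Of its 78 calls 3 were false. Far fewer genes differed there than in these data, so these shares do not carry over directly. A gene that was not called is not thereby shown to be equal between the lines. Alternatives tried were other scalings, filters, DESeq2 1.42.0, limma-voom (limma 3.58.1), a replicate block, all 12 libraries in the fit, and leaving out each library. Results for some genes are not reported here.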

Additional observations from a re-analysis of the deposited data

Results flagged for a closer look

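For 7 genes at least 4-fold apart when grown alone and at a level of at least 1 in either line, the difference between the lines was called in opposite directions when they were grown alone and when they were grown together, and the change itself was called in a fit over 12 libraries (edgeR's quasi-likelihood test with Benjamini-Hochberg adjustment). They were chosen for that reversal, so the tests describe its size. In all 7 the gene was higher in LX2 alone and higher in HCCLM3 in co-culture. The difference alone minus that in co-culture was -5.62 (SE 0.259) on the log2 scale for TNFSF10, -4.27 (SE 0.275) for CA9 and -5.43 (SE 0.295) for RARRES2, whose counts are given above. It was -4.51 (SE 0.731) for TNC, the matrix glycoprotein tenascin C, which had 112, 64 and 237 counts in HCCLM3 alone, 831, 889 and 994 in LX2 alone, and 182, 389 and 486 against 55, 130 and 122 in co-culture. It was -6.27 (SE 0.445) for PLCXD3, a phospholipase-like gene, whose LX2 counts were 1051, 1075 and 907 alone and 8, 12 and 19 in co-culture. SOX18, an endothelial transcription factor gene, gave -3.89 (SE 0.437), and its HCCLM3 counts were 65, 31 and 23 alone and 669, 888 and 742 in co-culture. SHISA2 gave -2.92 (SE 0.207), with LX2 counts of 2404, 2235 and 2243 alone and 549, 407 and 438 in co-culture.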

How the results depend on the processing

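The counts of genes higher in HCCLM3 or in LX2 stayed within 1.5 times their values under all 17 alternatives. Leaving out each library in turn gave 6221 to 6616 genes higher in HCCLM3 and 6669 to 7457 higher in LX2. DESeq2's Wald test gave 6826 and 7679, limma-voom 6791 and 7865, and no filter on low counts 6633 and 7751. Genes at least 4-fold apart ranged from 1952 to 2541 and from 3122 to 4347. With the replicate number as a block, 6093 and 6442 genes were called. Of the 206 called genes among 210 named by rule, 190 kept their sign and their call throughout. With library totals in place of TMM factors 3 genes changed sign: the ephrin receptor EPHA2 (-0.11), the proteoglycan SDC4 (-0.24) and the tubulin TUBB (-0.25). A further limit is COL1A1, which passed the threshold with the replicate block (log2 fold change -4.86, adjusted p = 0.0414), with DESeq2 (adjusted p = 0.0464) and with limma-voom (0.00343). The cause of these changes was not tested. ZEB1 did not pass with the replicate block (adjusted p = 0.0637). Depth was not limiting for abundant genes, but genes under 10 counts in most libraries were not tested.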
